A study of Mus musculus with 24 samples.

Results

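The proteasome genes of mouse embryonic stem cells were followed through depletion of the bromodomain protein BRD2 and through the first days of differentiation. They were taken by symbol, as every gene named Psma to Psmg with a number and at most 1 further letter, without pseudogenes. This gave 49 of the 35742 genes in the deposited tables. The 19 core genes comprised 7 genes of the alpha ring, 7 of the constitutive beta ring and 5 inducible or tissue-restricted genes (Psma8, Psmb8, Psmb9, Psmb10 and Psmb11). The 20 regulatory genes comprised 6 ATPases of the base (Psmc), 11 non-ATPase subunits and 3 assembly chaperones with Psmd names (Psmd5, Psmd9 and Psmd10). The remaining 10 were 5 activators (Psme), the inhibitor Psmf1 and 4 chaperones (Psmg). The alpha ring, the constitutive beta ring, the ATPases and the non-ATPase subunits together are called the 31 constitutive subunits here.

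The proteasome is the protease that degrades ubiquitin-tagged proteins. Its barrel-shaped core stacks beta rings, which carry the proteolytic sites, between alpha rings, which gate the entrance; the regulatory particle binds ubiquitin chains and unfolds the substrate with its ring of ATPases. Interferon-inducible subunits (Psmb8, Psmb9 and Psmb10) can take the places of Psmb5, Psmb6 and Psmb7 in newly built cores and alter the peptides made for antigen presentation. Psme1 and Psme2 form the interferon-inducible PA28 cap, Psme3 forms a nuclear cap and Psme4 encodes PA200. Psma8 is an alpha subunit best known from the testis, where it stands in for Psma7, and Psmb11 is the beta subunit of the thymic cortex. Auxin degrons act through this machinery, since the auxin brings the tagged protein to a ubiquitin ligase.

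The cells were BRD2-degron V6.5 mouse embryonic stem cells, studied as undifferentiated cells (mES) in 2i medium with LIF and as embryoid bodies formed without LIF at day 2, 3 and 4 (EBd2, EBd3 and EBd4). All libraries came from cultures given 1 µg/ml doxycycline for 18 h. One arm of each stage then received 500 µM indole-3-acetic acid (IAA, the auxin) for 24 h and the other arm, called Dox, received none. Each of the 8 groups had 3 libraries of total RNA. What doxycycline switched on, the timing of IAA within the embryoid body culture, and whether libraries of a group came from different dishes are not given in the sources used here. So each p-value rests on the spread among these libraries alone, which may be technical. All controls carried doxycycline and the degron, so no group lacked doxycycline. No group received IAA without the degron either, so an effect of IAA itself and one of BRD2 loss cannot be told apart.

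The libraries held 7819522 to 15732767 reads over the genes of the tables, of which the proteasome genes took 0.697% to 0.836%. Values are reads divided by 1 size factor per library, called normalized counts. Markers of pluripotent cells summed to between 51530 and 53270 in mES Dox and to 12780 or less in every embryoid body library. RNA of Brd2 cannot show the loss of the protein. It was 4413, 4472 and 4606 normalized counts in mES Dox and 8441, 8034 and 8255 in mES IAA. Its log2 change with IAA was 0.87 ± 0.02 (SE) in mES. In EBd2, EBd3 and EBd4 it was 0.65 ± 0.04, 0.38 ± 0.04 and 0.48 ± 0.06, and the libraries of the arms did not overlap at any stage.

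Sequence before the gene start is shown for 4 members that the results turn on: Psmb10 and Psme2, which were lower with IAA at every stage; Psmd2, which was higher at 3 stages; and Psmb5, the constitutive counterpart of Psmb8, which was not called at any stage. Each is 120 bases, 5′ to 3′ on the gene's strand, from the RefSeq promoter table of GRCm38.p6 (mm10), and holds no exon of the GENCODE models. Capitals mark matches to the motifs named next. Psmb10 lies on the minus strand at chr8:105938445-105938564. Psme2 lies on the minus strand at chr14:55591114-55591233. Psmb5 lies on the minus strand at chr14:54618023-54618142, and Psmd2 on the plus strand at chr16:20651532-20651651.
Psmb10: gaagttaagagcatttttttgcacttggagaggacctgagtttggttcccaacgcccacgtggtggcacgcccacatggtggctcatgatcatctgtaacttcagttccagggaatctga
Psme2: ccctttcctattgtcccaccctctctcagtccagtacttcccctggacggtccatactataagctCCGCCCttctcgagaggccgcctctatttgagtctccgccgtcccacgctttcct
Psmb5: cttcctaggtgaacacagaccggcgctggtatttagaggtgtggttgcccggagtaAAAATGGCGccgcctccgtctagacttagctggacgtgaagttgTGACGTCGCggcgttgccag
Psmd2: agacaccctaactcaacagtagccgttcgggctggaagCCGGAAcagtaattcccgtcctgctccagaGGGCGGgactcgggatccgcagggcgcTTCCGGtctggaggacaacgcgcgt

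Of the 49 genes, 41 had a promoter window in that table, and 8 motifs were searched on both strands in the 250 bases before the RefSeq start. That start is not always the start of the GENCODE gene. The whole 250 bases lay in GENCODE exons for 6 members (Psma4, Psmb8, Psmb9, Psmb11, Psmd13 and Psme2b), and the RefSeq start was more than 1000 bases from the GENCODE start for 4 (Psmb11, Psmd5, Psmd9 and Psmf1). For Psmb8 it lay 474 bases inside the gene, and for Psmd9 it was 58777 bases away. The core of the antioxidant response element, TGACNNNGC, was in the windows of 5 members (Psmb5, Psmb6, Psmc6, Psmd9 and Psmd12) and of 11.5% of all 27025 genes with a window. The ETS core CCGGAA was in those of 17 members, 12 of them among the 25 constitutive subunits with a window, and of 13.6% of all genes. The GC box GGGCGG was in the windows of 22 members and 35.4% of all genes, and CCAAT in those of 14 members and 37.5% of all genes. TATAAA was in the windows of 4 members and 14.3% of all genes. The YY1 motif AANATGGCG was found in the window of Psmb5 alone among the members and in 1.29% of all genes. Of the interferon motifs, the GAS letters TTCNNNGAA were in the windows of Psmb8, where the match lies in exon sequence, and Psmg1, and of 8.13% of all genes. The core of the interferon-stimulated response element, GAAANNGAA, was in the windows of 3 members and 8.18% of all genes. In the members, 7 pairs of matches overlapped each other. These matches describe the letters of the windows and show no binding.

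Psme2b is a nearly identical copy of Psme2, which limits how far reads of the pair can be told apart. The longest open reading frames of both are 720 bases long and differ at 5 bases, an identity of 99.3%. The stretch from coding base 424 to 543, the 120 coding bases with the most differences, is shown with its 3 differing bases in capitals. A read there matches both genes only if it covers none of these bases.
Psme2: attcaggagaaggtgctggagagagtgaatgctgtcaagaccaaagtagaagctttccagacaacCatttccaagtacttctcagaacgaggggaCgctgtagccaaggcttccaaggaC
Psme2b: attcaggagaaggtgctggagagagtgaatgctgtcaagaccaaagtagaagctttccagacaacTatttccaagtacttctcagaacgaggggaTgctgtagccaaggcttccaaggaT
Of the 100-base windows of the Psme2b transcript, 52.0% occur unchanged in Psme2. The values of both genes are therefore uncertain as separate measurements, and how reads with several matches were counted is not given in the sources used here.

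At each stage most proteasome genes, like most of all genes tested, were not called with IAA under the size factors of the deposited values. In mES the beta ring, the non-ATPase subunits, the chaperones with Psmf1 and the activators each held calls in both directions. Among the members in mES, 6 of 48 rose and 15 fell, where a call is an adjusted p below 0.05 in limma over all genes tested. Of all genes in mES, 17.3% were called up and 20.1% down. Among genes with a mean of at least 500 normalized counts, closer to the level of most subunits, 39.4% were called up and 23.6% down. In EBd2, 4 of 49 rose and 7 fell, beside 13.4% of all genes up and 16.7% down (27.9% and 18.6% of genes with a mean of at least 500). At EBd3 the members gave 3 rises and 5 falls of 48, beside 4.22% and 6.32% of all genes (11.2% and 8.29% of the abundant genes). In EBd4, 1 of 48 rose and 7 fell, beside 4.69% and 5.57% of all genes (11.5% and 9.26% of the abundant genes). The median log2 change of the members was -0.03, -0.02, 0.02 and -0.10 from mES to EBd4, and that of all genes tested was -0.01, -0.04, -0.01 and -0.01.

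Single libraries moved the later counts. In EBd3, 1 member rose without the first or second Dox or the first or second IAA library, beside 2.23%, 2.07%, 2.06% and 3.12% of all genes called up. Without the third EBd3 Dox library 2 rose, beside 2.64%. Without the first Dox, second Dox or first IAA library 4, 5 and 5 members fell in EBd3, beside 3.75%, 3.58% and 4.12% of all genes. In EBd4 no member rose without the first or second Dox library, beside 1.91% and 2.11% of all genes called up. The falls in EBd4 numbered 3, 1, 4, 3 and 12 without the first Dox, the second Dox, the first IAA, the second IAA and the third IAA library, beside 1.77%, 1.85%, 3.55%, 2.31% and 5.41% of all genes. When all 24 libraries shared 1 estimate of the spread, 1 of 49 rose and 14 fell in EBd4, beside 7.34% and 8.21% of all genes.

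Counts under other rules stand beside their own shares of all genes, up and then down. At an unadjusted p below 0.05, limma gave 20.8% and 23.6% in mES and 17.6% and 21.9% in EBd2. Its EBd3 shares were 10.2% and 12.9% and its EBd4 shares 11.1% and 12.7%. The edgeR shares were 18.5% and 19.5%, 15.7% and 14.6%, 4.62% and 6.18%, and 5.13% and 5.22%. With DESeq2 they were 14.8% and 14.9%, 13.2% and 11.8%, 3.84% and 5.08%, and 6.09% and 5.04% of the genes it gave an adjusted p. Libraries of the arms did not overlap for 26 of 48 members in mES, beside 45.8% of all genes and 69.3% of the abundant genes. They did not overlap for 19 of 49 members in EBd2 (41.9% and 57.4%), 19 of 48 in EBd3 (26.9% and 39.3%) and 24 of 48 in EBd4 (28.5% and 42.9%).

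**Figure D1:**
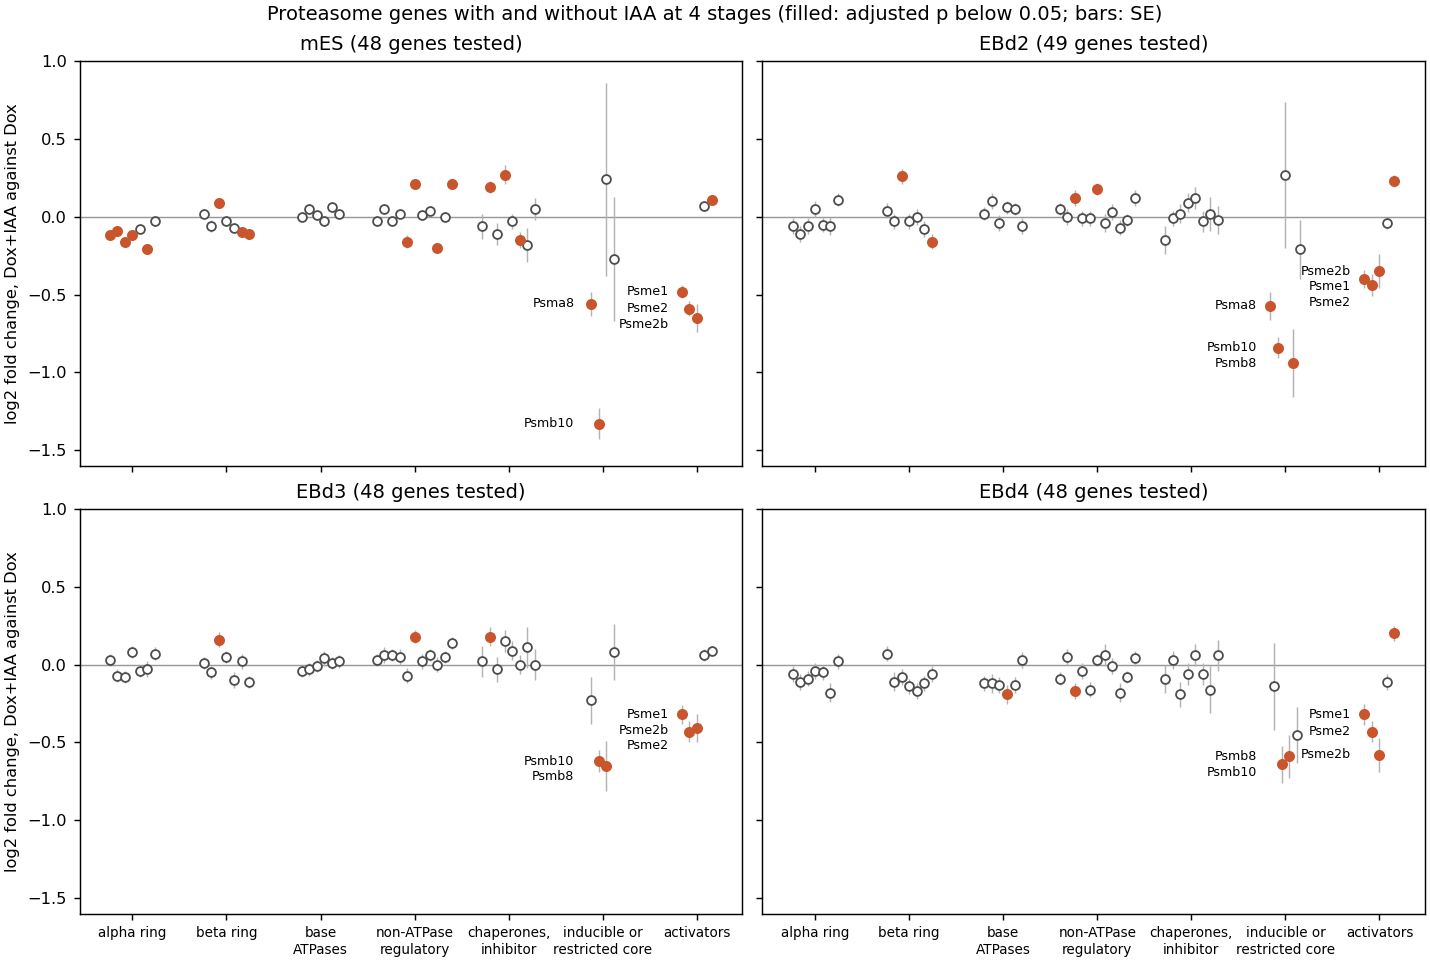
Log2 change with IAA against Dox (y axis) of each tested proteasome gene at the 4 stages, grouped by role; bars are standard errors and filled points have an adjusted p below 0.05 in limma. Psmb10, Psme1, Psme2 and Psme2b are below 0 and filled in all 4 panels, while the 31 constitutive subunits stay between -0.21 and 0.26.

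The 4 genes Psmb10, Psme1, Psme2 and Psme2b fell at all 4 stages, beside 0.948% of the 18244 genes tested at every stage. No member was called up at all 4 stages with limma, beside 0.647% of genes. At an unadjusted p below 0.05 there was 1 such member, Psme4, beside 1.74% of genes. With edgeR and DESeq2 there were 0, beside 0.85% and 0.691%. The 4 falling genes were also down at every stage with edgeR, beside 0.8% of genes, and 3 of them with DESeq2, beside 0.586%. DESeq2 gave no call to Psme2b in EBd2. Of the 48 members tested throughout, 24 were called at no stage, beside 40.8% of the 18244 genes and 18.6% of the 4920 with a mean of at least 500. In these bulk samples, fewer cells of a type and less RNA per cell cannot be told apart.

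Psmb10, the inducible counterpart of the trypsin-like subunit Psmb7, gave the largest fall of any member in mES. It stood at 211, 182 and 215 normalized counts in mES Dox and at 82.1, 72.2 and 85.1 in mES IAA. The IAA libraries were all below the lowest Dox library, with a log2 change of -1.33 ± 0.10 (SE, n = 3 per arm; adjusted p 4.71e-14). Its EBd2 libraries held 902, 852 and 835 with Dox and 434, 502 and 511 with IAA. The arms were again apart, by -0.84 ± 0.07 (adjusted p 6.24e-09). In EBd3 the values were 809.7, 737 and 693 against 503, 488 and 463, a change of -0.62 ± 0.07 (adjusted p 3.77e-07). At EBd4 they were 1023, 1216 and 972 with Dox and 587, 623 and 868 with IAA. Every IAA library there was below every Dox library, with a wider spread than at the other stages, and the change was -0.64 ± 0.12 (adjusted p 0.00324). Without the second Dox library, the EBd4 change was -0.55 with an adjusted p of 0.0511, the highest of its 15 alternatives, which went down to 3.43e-05. Psmb10 lies on chromosome 8 at 105935735 to 105938444 (mm10, minus strand).

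Psmb8, the counterpart of the chymotrypsin-like subunit Psmb5, was nearly silent in mES and fell with IAA in the embryoid bodies. The mES libraries held 0, 1.74 and 1.86 normalized counts with Dox and 2.93, 0 and 2.26 with IAA. These are 4 reads against 6, a ratio of 1.43 with a 95% counting interval of 0.34 to 6.9, so a change like that of the later stages was not detectable at this depth. In EBd2 the values were 41.9, 35.9 and 37.3 with Dox and 15.0, 18.9 and 25.9 with IAA. The IAA libraries lay below every Dox library and the change was -0.94 ± 0.22 (adjusted p 0.00267). The EBd3 values, 127, 96.9 and 80.7 against 68.4, 64.6 and 57.3, gave -0.65 ± 0.16 (adjusted p 0.00909). In EBd4, 225, 287 and 219 stood against 132, 161 and 193, a change of -0.59 ± 0.14 (adjusted p 0.013). The EBd3 call was lost without the first Dox library (-0.48, adjusted p 0.123). The EBd4 call was lost without the first or second Dox library or the first or second IAA library, with changes of -0.64 to -0.45. Both were also lost when all 24 libraries shared 1 estimate of the spread (adjusted p 0.27 and 0.289). The adjusted p ranged from 0.00303 to 0.27 over the alternatives in EBd3 and from 0.00436 to 0.289 in EBd4.

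Psmb9, the counterpart of Psmb6, was not called with IAA at any stage. It held 4.53, 12.2 and 5.58 normalized counts in mES Dox and 6.84, 5.28 and 4.52 in mES IAA. Its EBd2 values were 41.9, 42.5 and 30.9 with Dox and 37.1, 31.6 and 29.8 with IAA. In EBd3 they were 68.9, 51.1 and 70.04 against 65.8, 79.5 and 55.2, and the arms overlapped at each of these stages. In EBd4 they were 95.5, 127 and 84.3 against 80.6, 59.3 and 83.5. The EBd4 libraries did not overlap, but the log2 change of -0.45 ± 0.18 did not pass (adjusted p 0.134; 0.0867 to 0.457 over the alternatives). The changes at mES and EBd3 were -0.27 ± 0.40 and 0.08 ± 0.18. Psmb9 and Psmb8 are neighbours on chromosome 17 (34181987 to 34187764 on the minus strand and 34197721 to 34201454 on the plus strand, mm10), 9956 bases apart with Tap1 between them, and lie 59.4 and 75.1 kb from Brd2 itself. Exons of Psmb9 and Tap1 overlap on opposite strands over 5.79% of the exonic length of Psmb9, and whether the counting used strand is not given in the sources used here.

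Psma8 fell with IAA in mES and in EBd2. It held 256, 279 and 268 normalized counts in mES Dox and 169, 165 and 212 in mES IAA. In EBd2, 231, 215 and 213 stood against 131, 158 and 154. In both stages every IAA library was below every Dox library, with log2 changes of -0.56 ± 0.08 (adjusted p 3.05e-07) and -0.57 ± 0.09 (adjusted p 8.42e-05). The EBd3 libraries held 86.7, 96.9 and 99.8 with Dox and 65.8, 78.3 and 100.8 with IAA, and the EBd4 libraries 42.02, 34.9 and 52.9 against 59.7, 40.3 and 23.7. The arms overlapped in both, and the changes of -0.23 ± 0.15 and -0.14 ± 0.28 did not pass. The difference between the EBd3 and EBd2 effects was 0.35 ± 0.27 and did not pass either (adjusted p 0.537). Psmb11 stood at 2.52, 2.84 and 1.44 with Dox and at 1.77, 2.71 and 4.64 with IAA in EBd2, the only stage where it reached the minimum mean of 1 for a test of IAA, and the arms overlapped. In mES it held 1.81, 2.61 and 0 with Dox and 0 in each IAA library. In EBd3 it held 1.19, 0 and 0 against 1.29, 1.24 and 1.06, and in EBd4 1.27, 0 and 2.52 against 0, 1.12 and 0.

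**Figure D2:**
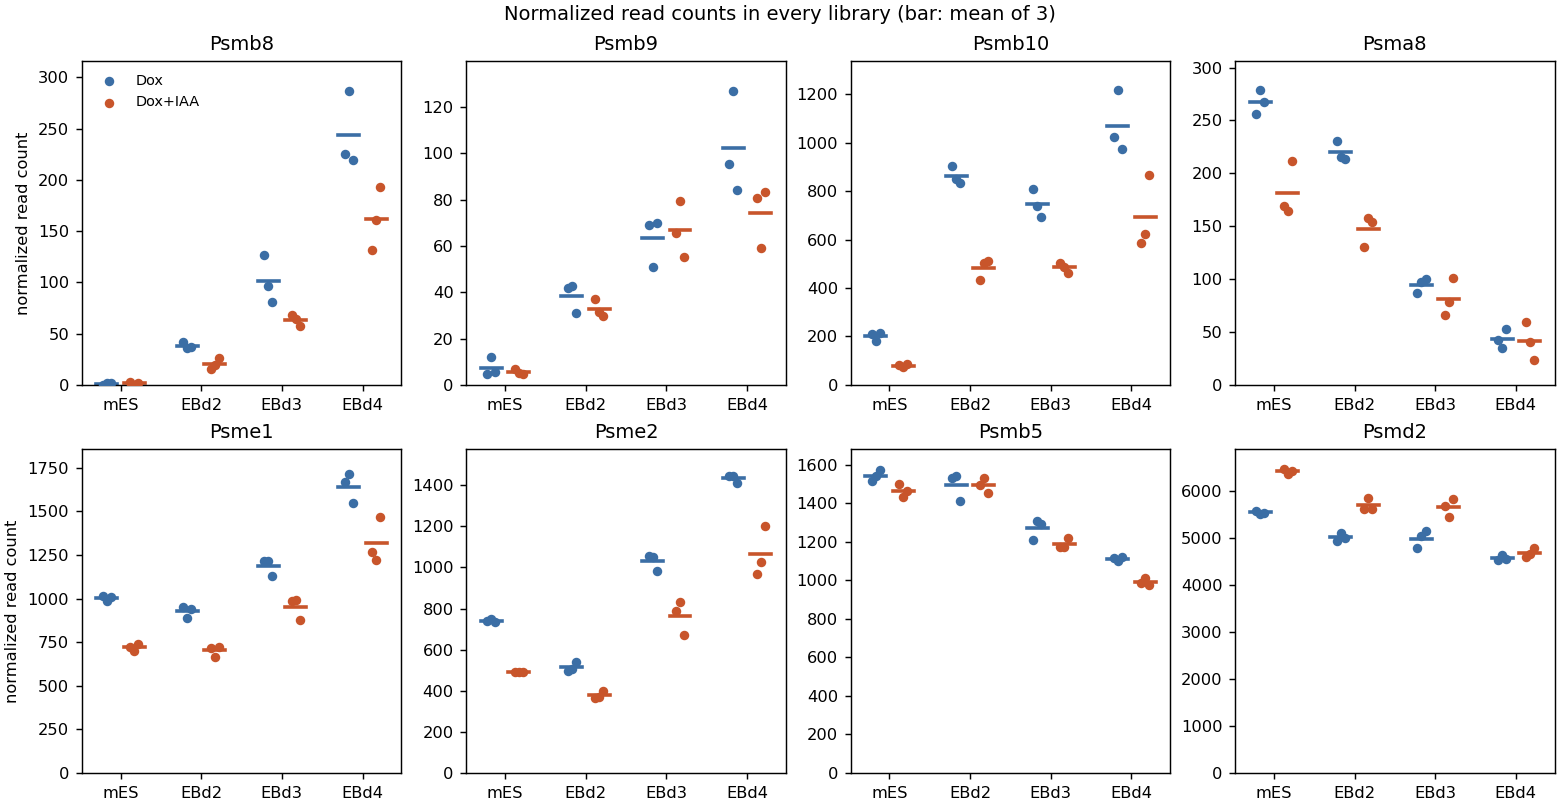
Normalized counts (y axis, linear from 0) of 8 proteasome genes in each of the 24 libraries, by stage and arm, with bars at the mean of 3. Psmb10, Psme1 and Psme2 have every IAA point below every Dox point at each stage, Psmd2 has its IAA points above in mES, EBd2 and EBd3, and Psmb8 starts near 0 in mES.

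Set against its constitutive counterpart and scaled for exonic length, Psmb10 had the highest ratio of the inducible beta genes in every group. Exonic length merges all annotated exons: 1705 bases for Psmb10 and 3421 for Psmb7, but 3381 for Psmb8 and 899 for Psmb5. The transcripts present may be shorter, so ratios between genes are uncertain, while both arms share the same lengths. With Dox the level of Psmb10 was 20.6% ± 2.0 (SD, n = 3) of Psmb7 in mES. At EBd2, EBd3 and EBd4 it was 79.3% ± 3.82, 77.4% ± 5.48 and 114% ± 11.9. With IAA the same ratios were 8.77% ± 0.73, 49.6% ± 5.25, 54.3% ± 2.56 and 77.1% ± 14.7, and the libraries of the arms did not overlap at any stage. Psmb8 reached 5.82% ± 0.962 of Psmb5 in EBd4 Dox and 4.34% ± 0.86 in EBd4 IAA, from 0.0204% in mES Dox. Psmb9 reached 2.78% ± 0.602 of Psmb6 in EBd4 Dox and 2.19% ± 0.326 in EBd4 IAA. Psma8 went the other way, from 17.1% ± 0.814 of Psma7 in mES Dox to 2.37% ± 0.5 in EBd4 Dox. Psma7 and Psma8 share 75.3% of their coding bases.

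**Figure D3:**
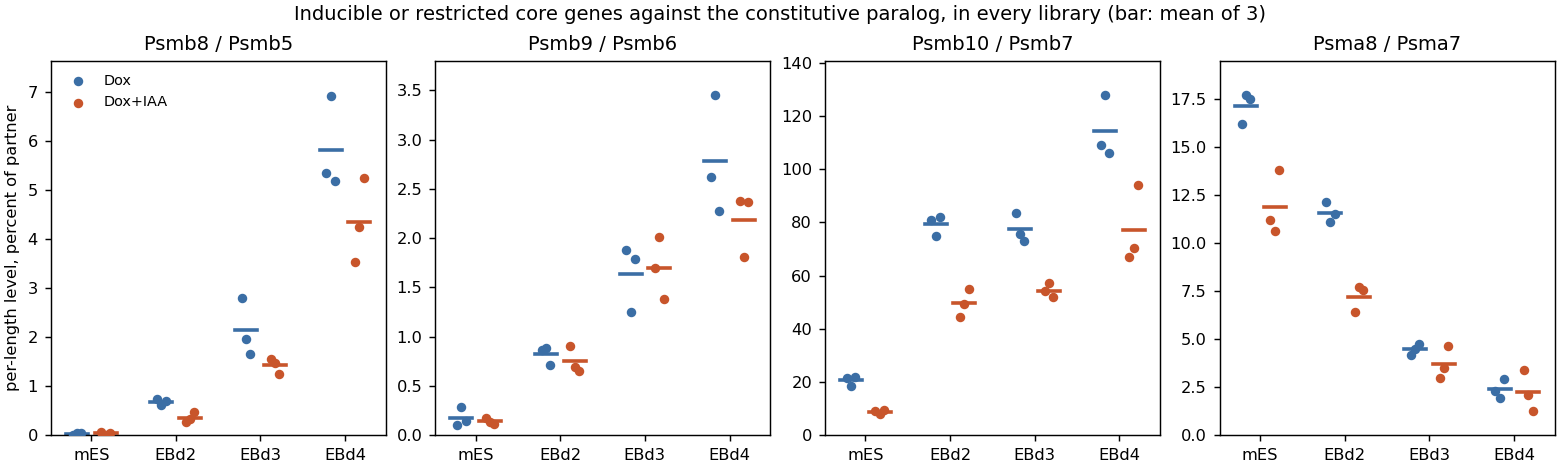
Ratio of each inducible or restricted core gene to its constitutive counterpart, in percent of levels per exonic length (y axis), for each library by stage and arm, with bars at the mean of 3. Psmb10 over Psmb7 climbs from 18.3% to 21.9% in mES Dox to 106% to 128% in EBd4 Dox with the IAA libraries lower at each stage, and Psma8 over Psma7 declines.

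Markers of several cell types moved with IAA at some stages, among them those of blood and immune cells, which carry immunoproteasomes. The summed level of the 5 markers found (of 6 listed) was 471.1 to 515.7 in mES Dox and 390.8 to 413.1 in mES IAA, and 391.9 to 471.2 against 226.7 to 232.2 in EBd2. The sums overlapped in EBd3 (238.6 to 301.2 against 233.6 to 260.6) and in EBd4 (159.9 to 187.2 against 155.6 to 166.8). Limma called 3 of 4 tested immune markers lower with IAA in mES, 2 of 5 in EBd2 and 1 of 4 in EBd3. In EBd4 it called 0 of 4, with a median log2 change of 0.32; 1 was lower at an unadjusted p below 0.05, and edgeR and DESeq2 called 0. Ptprc, the pan-leukocyte gene, stayed below 1 normalized count on average in both mES arms, in EBd3 IAA and in both EBd4 arms. From mES to EBd4 the Dox sums went down while Psmb8, Psmb9 and Psmb10 went up. Fibroblast markers, 8 in all, summed to 190.3 to 241.0 in EBd2 Dox and 126.6 to 142.2 in EBd2 IAA. Of the 6 tested there 3 were called lower, and Lum and Postn stayed below 1 in both arms. Embryoid body markers, 7 in all, summed to 2990 to 4061 against 4418 to 4604 in EBd2, with 2 called higher and 1 lower. The 6 primitive endoderm markers summed to 190.0 to 198.1 against 215.6 to 230.5 there, with 1 called higher. Pluripotency markers, 8 in all, summed to 51530 to 53270 against 58940 to 60690 in mES (6 called higher and 1 lower), and to 11640 to 12470 against 10520 to 10950 in EBd4 (4 higher and 2 lower). The sums of these lists overlapped between the arms at the other stages, though single markers were called there. Limma called 1 of 8 pluripotency markers higher and 4 lower in EBd2 (median log2 change -0.52), and 1 and 2 in EBd3. Of 7 embryoid body markers 2 were lower in EBd4 (median -0.78), and of 5 tested in mES 2 were higher and 1 lower. Of 3 fibroblast markers tested in mES 1 was higher and 1 lower, and 1 was lower in each of EBd3 and EBd4. The part of any of these cell types in the results was not tested.

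The PA28 genes Psme1 and Psme2 fell together at each stage. Psme1 held 1016, 989 and 1010.1 normalized counts in mES Dox and 725, 698 and 738 in mES IAA. Psme2 held 741, 747 and 733 against 493, 491 and 492. In neither gene did an IAA library reach a Dox library, and the log2 changes were -0.48 ± 0.04 (adjusted p 1.87e-12) and -0.59 ± 0.05 (adjusted p 1.57e-13). At EBd2, Psme1 had 952, 888 and 942 against 719, 666 and 725, and at EBd3 1217, 1216 and 1127 against 987, 990.3 and 876. Its changes there were -0.40 ± 0.06 and -0.32 ± 0.06. EBd4 values of 1666, 1716 and 1546 stood against 1264, 1218 and 1465, a change of -0.32 ± 0.07 (adjusted p 0.00686). This last call was lost without the first or second Dox library or the second IAA library, with changes of -0.31 to -0.27 and adjusted p of 0.0614 to 0.0735 (0.000222 to 0.0735 over all alternatives).

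Psme2 in the embryoid bodies kept the same order of arms. The libraries held 495, 507 and 539 with Dox and 364, 372 and 398 with IAA in EBd2. In EBd3 they held 1057, 1049.5 and 983 against 788, 834 and 672, and in EBd4 1445, 1447 and 1409 against 970.4, 1025 and 1203. No arms overlapped, and the changes were -0.44 ± 0.07, -0.43 ± 0.07 and -0.43 ± 0.07 (adjusted p 3.29e-05, 5e-05 and 0.00136), called under all 15 alternatives at each stage. The copy Psme2b held 225, 203 and 199.8 normalized counts with Dox and 137, 143 and 121 with IAA in mES. In EBd2 it held 152, 174 and 149 against 108, 127 and 137, in EBd3 313, 286 and 293 against 229.7, 247 and 197, and in EBd4 432, 464 and 400.3 against 272, 247 and 355. Its arms were apart at each stage, and it fell by 0.65, 0.35, 0.41 and 0.58 on the log2 scale from mES to EBd4. Its EBd2 call was lost without the second Dox or the first IAA library and with DESeq2 (changes of -0.32 to -0.26, adjusted p 0.108 to 0.119, from 0.00606 over all alternatives). Its EBd4 call was lost without the second Dox library (-0.53, adjusted p 0.0586; from 0.000333). Per exonic length (837 bases for Psme2b and 1764 for Psme2, all annotated exons merged), Psme2b was recorded at 57.2% to 68.9% of Psme2 in the means of the 8 groups. Psme1 and Psme2 lie 5911 bases apart on chromosome 14 (55578123 to 55581529 on the plus strand and 55587441 to 55591113 on the minus strand, mm10), with Emc9 between them.

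The other caps did not share this direction. Psme4 (PA200) rose in mES, from 4169.9, 4249.6 and 4274 normalized counts to 4586, 4545 and 4577, and in EBd2, from 3695, 3568 and 3629 to 4347, 4022 and 4376. Every IAA library was above every Dox library, and the changes were 0.11 ± 0.02 (adjusted p 0.000201) and 0.23 ± 0.04 (adjusted p 0.000555). The mES call was lost when libraries were scaled by total reads (0.05, adjusted p 0.0902, the highest of its alternatives; the lowest was 3.33e-05). In EBd4, Psme4 rose from 4262, 4391 and 4312 to 5308, 4818 and 4763 (0.20 ± 0.05, adjusted p 0.0125). That call was lost without the first Dox library (adjusted p 0.0841) or the second (0.0645), over a range from 0.000355. The EBd3 libraries were also apart, at 4771, 4921 and 4659.8 with Dox against 5137, 5135 and 4952 with IAA, but the change of 0.09 had an adjusted p of 0.128. Psme3 was not called with IAA at any stage, with changes of 0.07, -0.04, 0.06 and -0.11 from mES to EBd4; in mES it was called with edgeR. Its values were 2494, 2571 and 2611 with Dox and 2674, 2721 and 2651 with IAA in mES, and 2854, 2883 and 2973 against 2868, 2806 and 2823 in EBd2. In EBd3 they were 2500.45, 2618 and 2604 against 2667, 2691 and 2683, and in EBd4 2408, 2366 and 2164 against 2052, 2215 and 2178. The arms were apart in mES and EBd3 and overlapped in EBd2 and EBd4.

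The log2 changes of the constitutive core lay between -0.21 and 0.26 at all stages. In mES, 5 of the 7 alpha ring genes fell, beside 20.1% of all genes and 23.6% of the abundant genes. Psma1 fell by 0.12, Psma2 by 0.09, Psma3 by 0.16, Psma4 by 0.12 and Psma6 by 0.21 on the log2 scale. Psma6 held 1770.2, 1839.9 and 1755 normalized counts with Dox and 1559, 1497 and 1586 with IAA, so the arms were apart. The Psma2 call was lost with DESeq2, with 1 spread estimate for all libraries, and without any one of the first and second Dox libraries and the second and the third IAA libraries (adjusted p 0.0601 to 0.155; from 8.3e-05 over all alternatives). In the embryoid bodies limma called no alpha ring gene, with changes of -0.18 to 0.11. At an unadjusted p below 0.05 there were 2 in EBd2, 0 in EBd3 and 1 in EBd4, and edgeR and DESeq2 each called 1 in EBd2 and 0 later. Scaling by total reads moved the mES split of the 48 members from 6 up and 15 down to 4 up and 24 down, so that most were called. The shares of all genes were then 12.7% up and 25.5% down, and the median of all genes tested moved from -0.01 to -0.07.

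The beta ring held calls in both directions. Psmb3, a structural beta subunit without a proteolytic site, rose in EBd2 from 1609.8, 1682 and 1585 to 1924, 2011 and 1908 normalized counts. The IAA libraries were all higher, by 0.26 ± 0.05 (adjusted p 0.00027). In EBd3 it rose from 1731, 1643 and 1824 to 1914, 1959 and 1927 (0.16 ± 0.05, adjusted p 0.0249), and in mES by 0.09. The EBd3 call was lost without the first or second Dox library or the first or second IAA library (0.12 to 0.17, adjusted p 0.0676 to 0.208, from 0.0136 over all alternatives). The mES call was lost with total-read scaling (0.03, adjusted p 0.458), with 1 spread estimate for all libraries, and without the second Dox or first IAA library. The trypsin-like Psmb7 fell by 0.11 in mES and by 0.16 in EBd2, and the caspase-like Psmb6 fell by 0.10 in mES. The EBd2 call of Psmb7 was lost with edgeR, DESeq2 and without the first or second Dox or the first or the third IAA library (adjusted p 0.0596 to 0.141; from 0.000349). The Psmb6 call was lost with DESeq2, with 1 spread estimate and without the first or second Dox library (adjusted p 0.0634 to 0.124; from 3.87e-05). Psmb5, the chymotrypsin-like subunit, was not called at any stage.

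Of the regulatory particle, the scaffold subunit Psmd2 rose at 3 stages. It held 5579, 5520.5 and 5540.3 normalized counts in mES Dox and 6468, 6360.3 and 6426 in mES IAA, with 4941, 5107 and 4997 against 5614, 5854 and 5625 in EBd2. In EBd3 the values were 4784, 5036 and 5151 against 5691, 5441 and 5825. The arms did not overlap at these stages, and the changes were 0.21 ± 0.02, 0.18 ± 0.04 and 0.18 ± 0.04 (adjusted p 2.54e-10, 0.00156 and 0.00145), called under all 15 alternatives at each stage. The EBd4 libraries overlapped, at 4539.6, 4631 and 4561 against 4595, 4653 and 4778. The difference between the EBd4 and EBd3 effects of Psmd2 was -0.15 ± 0.05 and did not pass (adjusted p 0.0553). In mES, Psmd8 also rose, from 2339, 2325 and 2320.4 to 2715, 2772 and 2611 (0.21 ± 0.03, adjusted p 1.07e-07), while Psmd6 fell by 0.20 and the deubiquitinase Psmd14 by 0.16.

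Psmd12, a lid subunit, was the only member called in opposite directions. Its EBd2 values were 1563, 1547 and 1584 with Dox and 1658, 1720.3 and 1740.0 with IAA, and its EBd4 values were 1920.3, 1889 and 1797 against 1639, 1646 and 1702. The changes were 0.12 ± 0.05 (adjusted p 0.0498) and -0.17 ± 0.05 (adjusted p 0.0376), with no overlap of arms. The EBd2 call was lost without any 1 of the 6 libraries except the third Dox library, with changes of 0.09 to 0.15 over the alternatives that lost it and adjusted p up to 0.168. The EBd4 call was lost with DESeq2, TMM scaling, the replicate block and without the first or second library of either arm (adjusted p 0.0824 to 0.155; from 0.00348). The ATPases of the base gave no call with limma in mES, EBd2 and EBd3. An unadjusted p below 0.05 was reached by 1, 0 and 0 of the 6, edgeR called 1, 1 and 0, and DESeq2 called 0 at each. In EBd4, Psmc4 fell from 1815, 1706 and 1576 to 1422, 1494 and 1545 (-0.19 ± 0.06, adjusted p 0.0498). This call was lost under 10 of 15 alternatives, among them edgeR, DESeq2 and the omission of either the first or second Dox or the first or second IAA library (adjusted p 0.0512 to 0.227; from 0.00625).

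Of the 8 chaperone and inhibitor genes, limma called 2 up and 1 down in mES, beside 17.3% and 20.1% of all genes. At EBd3 it called 1 up and 0 down, beside 4.22% and 6.32%. In mES, Psmf1, which encodes the inhibitor PI31, rose from 332, 344 and 346 to 405, 408 and 422 normalized counts, with every IAA library higher (0.27 ± 0.06, adjusted p 0.00012). The base chaperone Psmd5 rose from 954, 990.3 and 909 to 1079, 1052 and 1124 in mES (0.19 ± 0.04, adjusted p 0.000176). In EBd3 it rose from 859.6, 856 and 795 to 954, 933 and 949 (0.18 ± 0.06, adjusted p 0.0386). The EBd3 call of Psmd5 was lost with DESeq2, with total-read scaling and without any Dox library or the first or second IAA library (0.14 to 0.20, adjusted p 0.0549 to 0.21; from 0.0176). Psmg2, a chaperone of alpha ring assembly, fell by 0.15 in mES. That call was lost with DESeq2, 1 spread estimate, and without the first or second Dox or the third IAA library (adjusted p 0.0764 to 0.197; from 0.00137).

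Over the 31 constitutive subunits, limma called 3 up and 9 down in mES, beside 39.4% and 23.6% of the genes with a mean of at least 500. At EBd2 it called 3 and 1 (27.9% and 18.6% of the abundant genes), at EBd3 2 and 0 (11.2% and 8.29%), and at EBd4 0 and 2 (11.5% and 9.26%). In EBd3, edgeR and DESeq2 also called 0 down, and 1 was down at an unadjusted p below 0.05; at that rule 21.2% of the abundant genes were up and 14.8% down. In EBd4, edgeR and DESeq2 called 0 up. The unadjusted rule gave 0 up and 11 down there, beside 20.6% and 18.2% of the abundant genes. Every called constitutive subunit had arms that did not overlap. In EBd4, 15 of the 31 had arms apart, beside 28.5% of all genes and 42.9% of the abundant genes, with a median change of -0.09.

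The effect of IAA itself differed between neighbouring stages for 6 members. Between mES and EBd2, 3 of 49 members differed, beside 16.3% of all genes. The Psmb10 effect was smaller in EBd2 by 0.49 ± 0.14 (adjusted p 0.0153), Psma4 went from a fall in mES to no call in EBd2 (difference 0.17 ± 0.06, adjusted p 0.0274), and Psmd5 from a rise to no call (-0.20 ± 0.07, adjusted p 0.0441). The Psmb10 difference was 0.42 without the second mES IAA library (adjusted p 0.0563, the highest of 20 alternatives; the lowest was 0.00707). Without that library the Psmb8 difference of -1.18 ± 0.50 (adjusted p 0.112), which rests on 4 and 6 reads in mES, became -1.79 and passed (adjusted p 0.00247). Between EBd2 and EBd3, no member differed with limma, beside 7.22% of all genes; 2 did at an unadjusted p below 0.05, beside 19.5%, and edgeR gave 0, beside 7.72%. DESeq2 gave 0, beside 1492 of the 13567 genes with an adjusted p. Between EBd3 and EBd4, 3 members differed, beside 4.93% of all genes: Psmb3 by -0.23 ± 0.06, Psmc4 by -0.24 ± 0.07 and Psmd12 by -0.23 ± 0.06.

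The Dox libraries show how proteasome genes differed between the stages. Medium, culture form and time of harvest differ along with the stage and cannot be told apart from it. Neighbouring steps share a group of libraries, so they are not independent of each other. From mES to EBd2, 14 of 49 members rose and 21 fell, beside 35.0% and 29.1% of all genes. From EBd2 to EBd3, 18 rose and 12 fell, beside 22.0% and 24.4%. From EBd3 to EBd4, 5 rose and 25 fell, beside 16.1% and 17.6%. Of the 4924 genes with a mean of at least 500, 2147 rose and 1972 fell from mES to EBd2. Among these abundant genes 1637 rose and 1921 fell from EBd2 to EBd3, and 1340 and 1469 from EBd3 to EBd4. At this last step 20 of the 31 constitutive subunits fell with limma. None rose with limma, edgeR or DESeq2, beside 16.1%, 15.9% and 14.7% of all genes. The unadjusted rule gave 0 up and 22 down, beside 20.3% and 22.0%. Their changes ran from -0.47 to 0.07 with a median of -0.17.

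The inducible beta genes rose from mES to EBd2. Psmb8 went from 4 reads in the mES Dox libraries to 140 in EBd2 Dox, a ratio of 32.0 in normalized counts with a 95% counting interval of 12.2 to 119. Its later steps were 1.36 ± 0.29 (adjusted p 0.000421) and 1.27 ± 0.29 (adjusted p 0.00135) on the log2 scale. Psmb9 held 4.53, 12.2 and 5.58 in mES Dox and 41.9, 42.5 and 30.9 in EBd2 Dox. It rose by 2.32 ± 0.26 and then 0.71 ± 0.26, and its last step of 0.68 did not pass (adjusted p 0.0518) but did with edgeR and DESeq2. Its middle call was lost without the low-value filter and without the third EBd2 or the first or the third EBd3 Dox library (0.56 to 0.71, adjusted p 0.0516 to 0.123; from 0.00126). Psmb10 rose by 2.09 ± 0.08 and, at the last step, by 0.52 ± 0.08, with a call of -0.21 between them that was lost under 7 of 15 alternatives, among them the omission of the first or second EBd2 or the second or the third EBd3 library (adjusted p 0.0534 to 0.151; from 0.0139). Psma8 had its calls in the opposite direction, -1.21 ± 0.12 from EBd2 to EBd3 and -1.13 ± 0.12 from EBd3 to EBd4. The groups of each of these called steps did not overlap, which held for 69.2%, 54.4% and 42.9% of all genes at the 3 steps.

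**Figure D4:**
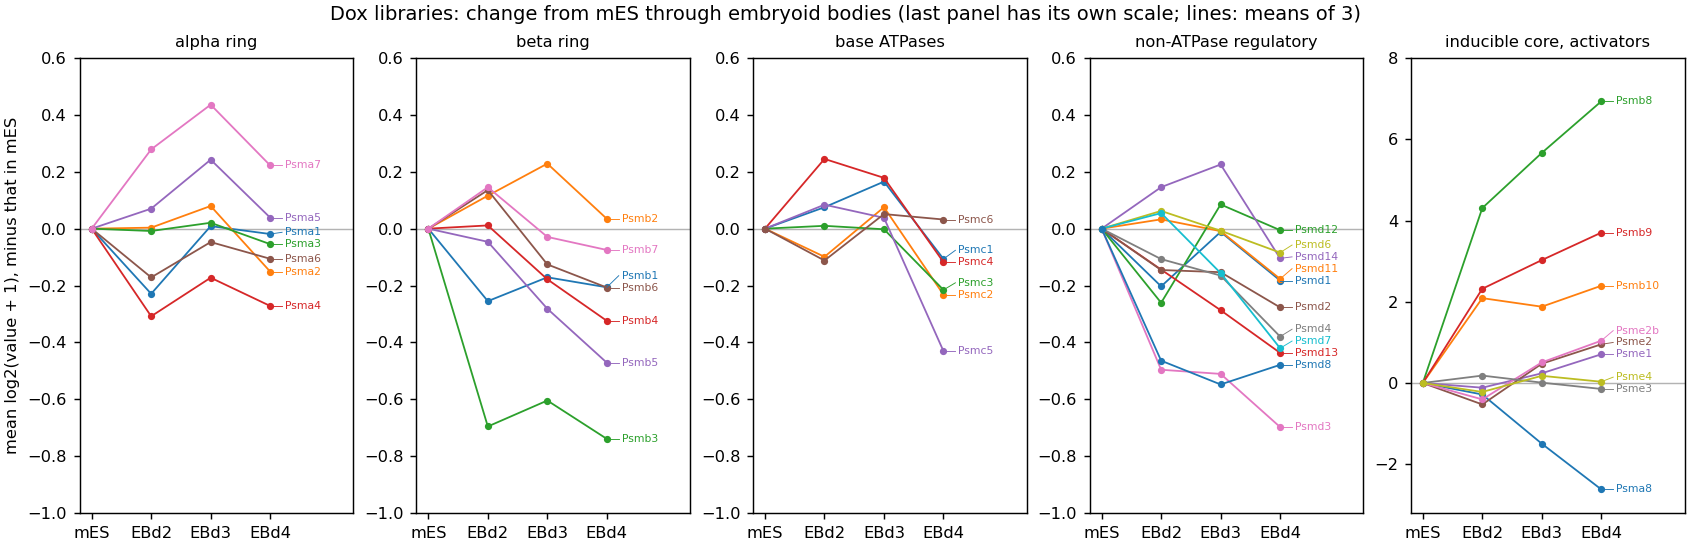
Mean log2(normalized count + 1) of each proteasome gene in the Dox libraries minus its mES mean (y axis) at mES, EBd2, EBd3 and EBd4 (x axis), by role, with Psmb11, the chaperones and Psmf1 left out and the inducible core and activators on a scale of their own. Psmb8 rises at each step, Psma8 declines, Psme1 and Psme2 are lowest in EBd2 and highest in EBd4, and most constitutive subunits end lower in EBd4 than in EBd3.

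The PA28 genes dipped before they rose. In Dox, Psme2 fell by 0.53 from mES to EBd2 and then rose by 1.00 ± 0.05 and 0.48 ± 0.05. Psme1 was called down by 0.12 at the first step, a call lost under 8 of 15 alternatives, among them the omission of any mES library or the second EBd2 library (adjusted p 0.059 to 0.182; from 0.00677), and then rose by 0.35 ± 0.05 and 0.47 ± 0.05. Psme4 rose by 0.40 ± 0.03 from EBd2 to EBd3. Psme3 rose by 0.18 and then fell by 0.17 and 0.16. Among constitutive subunits the largest first-step falls were Psmb3, with 2625, 2570.4 and 2705 in mES Dox against 1609.8, 1682 and 1585 in EBd2 Dox (-0.70 ± 0.04), Psmd3 (-0.50 ± 0.05) and Psmd8, which went to 1703, 1733 and 1627 (-0.46 ± 0.04). The inhibitor Psmf1 rose from 332, 344 and 346 to 665, 684 and 705 at that step (1.00 ± 0.06, adjusted p 2.75e-13) and then fell to 503, 548 and 548 in EBd3 (-0.36 ± 0.06, adjusted p 2.16e-05). The chaperone Psmd9 rose by 0.79 ± 0.07 at the first step. Among constitutive subunits the ATPase Psmc5 fell most at the last step, from 2211, 2352 and 2392 to 1681, 1706 and 1635 (-0.47 ± 0.04, adjusted p 1.81e-09). All of these steps had groups that did not overlap.

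Per exonic length, scaled to the sum over genes as in TPM, the level of the 31 constitutive subunits in mES Dox ran from 106.9 for Psmd11 to 571.9 for Psmb5, a 5.35-fold span around a median of 253.5. The median was 248.7 in EBd2 Dox, 273.9 in EBd3 Dox and 246.6 in EBd4 Dox. The span depends on the merged exonic length, which was 6383 bases for Psmd11 and 899 for Psmb5. Exons of Psmb7 overlap those of Nek6 on the opposite strand over 11.8% of their length.

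Genes around the proteasome were taken from lists, and their counts stand beside the shares of all genes given above, 17.3% up and 20.1% down in mES and 13.4% and 16.7% in EBd2. The EBd3 shares were 4.22% and 6.32%, the EBd4 shares 4.69% and 5.57%. Among genes with a mean of at least 500 the shares were higher: 39.4% and 23.6% in mES, and 27.9% and 18.6% in EBd2. For the same abundant genes they were 11.2% and 8.29% in EBd3, and 11.5% and 9.26% in EBd4. Of genes for antigen processing and interferon response, 3 rose and 5 fell of 14 in mES. Of the 15 tested at the later stages, 4 rose and 5 fell at EBd2, 1 and 5 at EBd3, and 1 and 6 at EBd4. Their median log2 change was 0.00, -0.13, 0.02 and -0.23 from mES to EBd4. In mES the class I genes H2-D1 and B2m rose by 0.45 and 0.52 and the interferon signalling gene Stat2 by 0.24. In EBd2, H2-D1 rose by 0.66, while Tapbp changed by -0.67 and Nlrc5, the activator of class I genes, by -1.49. In EBd3 the interferon regulator Irf1 changed by -0.57, the peptidase gene Erap1 by -0.56 and Tapbp by -0.50. In EBd4 the peptide transporter gene Tap2 changed by -0.78, Irf1 by -0.58 and B2m by 0.78. Class I genes are a family of similar sequences, so values of single members are uncertain.

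Of the genes within 150 kb of Brd2, with Psmb8 and Psmb9 counted among them, 3 rose and 2 fell of 19 in mES, 1 and 6 of 20 in EBd2, 0 and 3 of 18 in EBd3, and 0 and 5 of 20 in EBd4. At an unadjusted p below 0.05, 1 was up in each of EBd3 and EBd4; edgeR called 0 and 1 up there, and DESeq2 0 in both. The median log2 change was -0.08, -0.15, -0.11 and -0.16 from mES to EBd4. In mES, Ring1 rose by 0.51, while H2-DMb1 changed by -1.58 and Tap2, 80.9 kb from Brd2 on the far side of Psmb8, by -1.45. The Tap2 call in mES was lost with DESeq2 (-1.41, adjusted p 0.0513, the highest of its alternatives; the lowest was 8.49e-05). In EBd2, H2-K1 rose by 0.39, while Tap1 changed by -0.58 and Tap2 by -1.05. Tap1 changed by -0.52 in EBd3 and by -0.55 in EBd4, where Psmb8 and Tap2 were also among the 3 with the smallest adjusted p. Its EBd3 call was lost with DESeq2, 1 spread estimate, and without the second Dox or first IAA library (adjusted p up to 0.0793), and its EBd4 call without the first or second Dox or second IAA library (up to 0.0856).

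Of the NFE2L1 axis, which drives proteasome genes when the proteasome is inhibited, 7 rose and 1 fell of 13 in mES, 4 and 1 of 14 in EBd2, and 2 and 0 of 13 in each later stage. In EBd3 and EBd4, edgeR and DESeq2 called 0 down, and 0 and 3 were down at an unadjusted p below 0.05. The median log2 change was 0.20, 0.11, 0.13 and 0.00 from mES to EBd4. In mES, Nfe2l1 rose by 0.25 ± 0.02, its partner gene Mafg by 0.33 and Nfe2l2 by 0.39. In EBd2 the ligase gene Syvn1 rose by 0.50 and Maff by 0.43, while Fbxw7 changed by -0.28. Nfe2l2 rose by 0.23 in EBd3 and by 0.37 in EBd4. Its EBd3 call was lost without the first Dox or the first IAA library (0.18 to 0.21, adjusted p 0.0525 to 0.0625; from 0.00201).

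Of 6 ubiquitin and E1 genes, 4 rose in mES, 2 in EBd2 and 1 in each later stage, with medians of 0.22, 0.04, 0.01 and -0.02. None fell with limma, edgeR or DESeq2, and 1 was down at an unadjusted p below 0.05, in EBd3. In mES, Uba1 rose by 0.23 and Ubb by 0.21. In EBd2, Uba6 rose by 0.36 and Uba1 by 0.22. Of 16 shuttle factors and VCP partners, 6 rose and 2 fell in mES and 5 and 2 in EBd2. At EBd3 the counts were 1 and 1, and at EBd4 1 and 0, where edgeR and DESeq2 also called 0 down and 1 was down at an unadjusted p below 0.05. Their medians were 0.04, 0.00, 0.00 and -0.03. In mES, Zfand5 rose by 0.39, Vcp by 0.20 and its cofactor gene Nploc4 by 0.29. Vcp rose by 0.29 in EBd2 and by 0.18 in EBd3, where Faf1 changed by -0.31, and Zfand5 rose by 0.50 in EBd4.

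Of 10 proteasome partners, 2 rose and 4 fell in mES, with a median of -0.06. Akirin1 rose by 0.21, while the core assembly factor Pomp changed by -0.20 ± 0.04 and Ecpas by -0.20. At the later stages limma called none up; it called Pomp and Usp14 down in EBd2, none in EBd3 and Ecpas in EBd4. Both EBd2 changes were -0.16 and the EBd4 change was -0.17, with medians of the list at -0.02, 0.02 and 0.05. The EBd2 calls were lost with DESeq2 and without the first or second Dox or the first or the third IAA library, that of Usp14 also with edgeR and without the second IAA library (adjusted p 0.0575 to 0.132). The Ecpas call in EBd4 was lost under 8 of 15 alternatives, among them the omission of any Dox or the first or second IAA library (adjusted p 0.064 to 0.113). The counts at an unadjusted p below 0.05 were 1 and 2, then 2 and 0, then 1 and 2. With edgeR they were 1 and 1, 0 and 0, and 0 and 1, and with DESeq2 0 at each.

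In the authors' deposited table, Psmb10 in mES was the only proteasome gene carrying a call, with a log2 fold change of -1.34 and an adjusted p of 9e-19. The authors' call asks for more than an adjusted p below 0.05, unlike the calls above. By the authors' DESeq2 values Psmb10 in EBd2 had -0.84 and an adjusted p of 5.95e-13 without a call. The authors' deposited table gives an adjusted p below 0.05 to 5 members up and 12 down in mES. For EBd2, EBd3 and EBd4 the authors' deposited table gives 6 and 8, 4 and 5, and 1 and 15.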

How the data were processed

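Per the submitters' processing notes, reads were handled with STAR 2.5.3a, featureCounts 1.5.2 and DESeq2 (its version not given) on mm10. The deposited signal values are counts that the authors scaled by 1 size factor for each library with DESeq2. The values themselves show this, since 100% of positive values could be turned into whole reads within 1e-06. The authors' deposited log2 fold changes, p-values and score (headed stat) were used for comparison alone. Their column headers name neither the tool nor the test. Since the tables hold normalized values, limma 3.58.1 (trend) was run under R 4.3.3 after a log2 transform with a pseudocount of 1. Genes whose mean reached 1 were tested, p-values were adjusted by Benjamini-Hochberg over all of them, and the threshold was 0.05. Changes are on that log2 scale, which understates the change of low genes. IAA was compared with Dox in a separate fit per stage; Dox steps used the 12 Dox libraries and differences between stages all 24. Alternatives were edgeR 4.0.16 and DESeq2 1.42.0 on the recovered reads, other scalings, filters and pseudocounts, a replicate block and the omission of each library. Replicate pairs differed by 1.12 to 5.35 times counting noise, so no library repeated the reads of another. Libraries made from the same RNA would also differ by about counting noise, and the mES Dox pairs differed by 1.12 to 1.27 times. Separate cultures are therefore not shown by this measure.

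Positions, exonic lengths and overlaps come from GENCODE M21 and promoters from RefSeq. Levels between genes were compared per kb of exonic length, scaled to the sum as in TPM. That length merges all annotated exons of a gene and can exceed the length of the transcripts present. The members and gene lists were chosen with earlier results of these data known. Values in every library are given for the inducible core genes, the activators and, per comparison, the 2 members per direction with the smallest adjusted p; some further members are given where a call rests on them. For each list up to 3 genes with the smallest adjusted p are named. Code for the fits was tested on simulated data. Other assays of the study were not analysed here.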

Additional observations from a re-analysis of the deposited data

Results flagged for a closer look

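For 6 members the IAA effect differed between neighbouring stages in a test of the difference itself (limma interaction contrast over all 24 libraries). They were 3 of 49 between mES and EBd2, beside 16.3% of all genes, and 3 of 49 between EBd3 and EBd4, beside 4.93%. The effect on Psmb10 was less negative in EBd2 than in mES by 0.49 on the log2 scale. The effect on Psma4 differed by 0.17 between the same stages: it held 2488, 2396 and 2366 normalized counts with Dox and 2239, 2214 and 2197 with IAA in mES, and 1869, 2077 and 1913 against 2009.6, 1999 and 2049 in EBd2, where the arms overlap. The effect on Psmd5 differed by -0.2, with EBd2 values of 987, 1059.5 and 980.4 against 991, 996 and 1009.6.

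From EBd3 to EBd4 the effect on Psmb3 moved by -0.23, on Psmc4 by -0.24 and on Psmd12 by -0.23. The EBd4 values of Psmb3 were 1640.1, 1561 and 1531 with Dox and 1457, 1453 and 1583 with IAA, which overlap. Psmc4 in EBd3 held 1940.0, 2071 and 2249.8 against 2191, 2053 and 2207. Psmd12 in EBd3 held 1960.2, 1937 and 2071 against 2008, 2048 and 2163. Of 20 alternatives, the call was lost under 6 for Psma4, 13 for Psmd5, 3 for Psmb3, 11 for Psmc4, 2 for Psmd12 and 1 for Psmb10. The Psma4 call was lost without the first mES Dox, the second or the third mES IAA, the first or the third EBd2 Dox, or the third EBd2 IAA library (0.14 to 0.17). The Psmb3 call was lost without the second EBd3 Dox, first EBd4 Dox or second EBd4 IAA library (-0.21 to -0.20), and that of Psmd12 without the third EBd3 IAA or first EBd4 Dox library (-0.21 to -0.20). The Psmd5 and Psmc4 calls were lost under most single omissions. Causes were not tested.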

How the results depend on the processing

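Of 322 single-gene values for members and list genes, 275 were called; 204 of these stayed called under every alternative, 71 were lost under at least 1, and 8 others were gained under at least 1. None reversed. Counts of members moved by more than 1.5 times as follows. Falls in mES numbered 24 instead of 15 with total-read scaling, beside 25.5% instead of 20.1% of all genes. Rises in EBd2 numbered 7 instead of 4 with edgeR, beside 15.7% instead of 13.4%. Falls in EBd4 numbered 14 instead of 7 when all 24 libraries shared 1 spread estimate, beside 8.21% instead of 5.57% of all genes. Leaving out 1 library gave 1 to 4 rises in EBd3, beside 2.06% to 5.09% of all genes. In EBd4 it gave 0 to 1 rises and 1 to 12 falls, beside 1.9% to 4.26% and 1.77% to 5.41%. The 3 differing effects between mES and EBd2 stood beside 3599 of 22019 genes. They became 5 with edgeR, TMM or total-read scaling, beside 3892 of 22019, 3431 of 22020 and 3610 of 22013 genes. They became 6 with DESeq2 or a mean of at least 10, beside 3458 of 14260 and 3898 of 14718 genes. They numbered 1 to 4 without 1 library, beside 3014 to 3764 of all genes. Differing effects between EBd2 and EBd3 numbered 0 to 1 without 1 library, beside 1181 to 1826 of all genes. Those between EBd3 and EBd4 numbered 0 to 6, beside 552 to 1358. Where a library was left out its arm had 2. The cause was not tested. Replicate numbers are shared by the groups but did not pair the libraries: same-numbered libraries had deviations correlated at -0.18 to 0.09, and 0 of 12 pairs exceeded 0.1. With the replicate block, EBd2 rises numbered 6 and EBd4 falls 5, beside 13.5% and 3.35% of all genes. Differences between mES and EBd2 then numbered 2, beside 3367 of 22019 genes. Depth limits Psmb8 in mES (4 and 6 reads) and Psmb11.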
